A study of Homo sapiens with 4 samples.

Results

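The surface antigens described here, 10 proteins of plasma cells that drugs bind or have been proposed to bind, were followed across 4 arrays of human multiple myeloma cells. They were chosen by name: CD38, SDC1, TNFRSF17, TNFRSF13B, SLAMF7, GPRC5D, FCRL5, CD37, CD48 and LY9. Of these 10 antigens, 7 had a named probe set, 1 each, among the 14884 genes named on the arrays. TNFRSF17, TNFRSF13B and GPRC5D were unnamed in the annotation used and were not analysed here. CD38, SDC1, SLAMF7, CD37 and CD48 lay above the filter on low signal and were tested with 7442 genes in all, while LY9 and FCRL5 lay below it and are given as values.

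The arrays were MIF-KO ARP-1, CTR-KO ARP-1, MIF-KO MM.1S and CTR-KO MM.1S, with 1 array each. ARP-1 and MM.1S are established lines of multiple myeloma, a malignancy of plasma cells. In both conditions cells carried a lentivirus and were sorted for its green fluorescent marker. The virus encoded a hairpin RNA against MIF, a secreted cytokine, in MIF-KO cells and a control hairpin in CTR-KO cells, so KO names a knockdown here. Nothing was said about clones or separate cultures, and the free-text descriptions of the ARP-1 arrays name the opposite condition to their titles. Groups follow the titles.

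Plasma cells lose many B cell surface proteins as they mature and keep others at high density, and proteins of the second kind are used as targets of antibodies, antibody-drug conjugates, bispecific antibodies and engineered T cells. CD38 is an ectoenzyme that consumes NAD and is bound by daratumumab and isatuximab. SDC1 (CD138) is a heparan sulfate proteoglycan that holds growth factors and is the classical plasma cell marker. SLAMF7 (bound by elotuzumab), CD48 and LY9 (CD229) belong to the SLAM family of immunoglobulin-like receptors, CD37 is a tetraspanin of B cells, and FCRL5 is an Fc receptor-like protein bound by cevostamab. Arrays measure RNA and not surface protein. In bulk RNA, fewer cells expressing a gene and less RNA per cell cannot be told apart.

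The antigens separated by what their signal followed. CD37, SLAMF7 and LY9 were lower on both MM.1S arrays than on both ARP-1 arrays. The share of all genes with this order was not counted. Of tested genes, 0.322% were at least 1.5-fold lower in MM.1S under both conditions. That is a different criterion and does not give the share for the order of the arrays. For CD38, SDC1 and CD48 the MIF-KO minus CTR-KO difference instead had opposite signs in ARP-1 and MM.1S, as it had in 67.6% of tested genes. Between MIF-KO and CTR-KO over both lines, 0 of the 5 tested antigens passed limma's test.

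Promoter sequences are shown for the 3 antigens with opposite differences in the lines, CD38 and SDC1 in one direction and CD48 in the other. They come from RefSeq on GRCh38.p14 and run 5′ to 3′ on the gene's strand, from 250 bases before the start site to 50 after it. CD38 lies on the plus strand at chr4:15778078-15778377. SDC1 lies on the minus strand at chr2:20225426-20225725, the upstream one of its 2 listed starts. CD48 lies on the minus strand at chr1:160711773-160712072. Capitals mark matches on either strand to TATAAA (the TATA box), GGGCGG (a GC box), CCAAT (the CCAAT box), CAGGTG (an E-box), TGACGT (the core of cAMP response elements) or TGATGNAA (the core of C/EBP-ATF elements).
CD38: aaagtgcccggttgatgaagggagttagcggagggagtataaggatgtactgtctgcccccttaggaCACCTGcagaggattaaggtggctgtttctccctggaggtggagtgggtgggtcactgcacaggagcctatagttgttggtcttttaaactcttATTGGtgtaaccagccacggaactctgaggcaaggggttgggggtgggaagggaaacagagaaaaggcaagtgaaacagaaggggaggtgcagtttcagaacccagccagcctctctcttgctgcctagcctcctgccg
SDC1: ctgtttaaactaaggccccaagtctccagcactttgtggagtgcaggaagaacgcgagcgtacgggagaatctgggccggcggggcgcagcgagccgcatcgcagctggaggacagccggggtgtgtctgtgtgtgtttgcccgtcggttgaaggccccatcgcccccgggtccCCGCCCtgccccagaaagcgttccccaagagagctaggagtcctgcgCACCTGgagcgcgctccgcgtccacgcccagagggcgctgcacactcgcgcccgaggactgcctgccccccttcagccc
CD48: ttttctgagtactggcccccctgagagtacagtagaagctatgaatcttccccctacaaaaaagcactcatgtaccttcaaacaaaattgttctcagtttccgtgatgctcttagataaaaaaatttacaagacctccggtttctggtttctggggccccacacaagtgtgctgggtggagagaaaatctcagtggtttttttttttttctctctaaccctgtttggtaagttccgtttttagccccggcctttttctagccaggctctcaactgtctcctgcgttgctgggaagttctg

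The E-box was matched as CACCTG 1 time each in the CD38 and this SDC1 window, starting at position -183 and -29 from the start site. It occurs in 20.6% of the 35116 promoters in the table. The window of the other listed SDC1 start, not shown, held no match to it. CD38 also holds 1 CCAAT box match (34.6% of promoters) and SDC1 1 GC box match (45.0% of promoters). The TATA box (11.5% of promoters), the cAMP response core (7.98%) and the C/EBP-ATF core (3.62%) were matched in none of the 3 windows, and the CD48 window held none of the 6 motifs. No 2 matches overlapped. The windows differ in base composition, with 54.0% G and C in CD38, 67.7% in SDC1 and 44.7% in CD48, against a median of 58.7% over the table. A match describes letters and is no binding site.

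Before the antigens, the target of the hairpin and the likeness of the arrays set the frame. MIF had an intensity of 541 on the MIF-KO and 1092 on the CTR-KO array of ARP-1, and of 405 on the MIF-KO and 1012 on the CTR-KO array of MM.1S. Of the tested genes, 22.8% were at least 1.5-fold apart within ARP-1 and 8.01% within MM.1S. The nearest pair joined MIF-KO ARP-1 with CTR-KO MM.1S, of different line and condition, at 6.64% of genes and 2 genes at least 4-fold apart. The identity of the lines was not checked by markers of either line, so ARP-1 and MM.1S values below rest on the labels. CTR-KO ARP-1 stood apart from CTR-KO MM.1S by 44 such genes. Of 12 plasma cell markers, 7 were named and tested, 3 of them among the 10 antigens, and the other 4 were IRF4 (intensity 3579 to 4380), XBP1 (930 to 1321), MZB1 (399 to 774) and POU2AF1 (32.7 to 37.3). POU2AF1, a coactivator of B cells and plasma cells, was thus as faint as markers of other cell types. No value on this scale was 0, so absence is judged by low signal. The highest was 63.0 among the 6 named of 10 T and NK cell markers, 13.7 among 3 of 8 stromal and endothelial markers and 47.5 among 5 of 10 naive and germinal centre B cell markers. None of 6 erythroid markers was named. Of 10 myeloid markers 7 were named, and only CD68, a lysosomal protein that other cells also make, stood out. CD68 was 56.9 in MIF-KO and 227 in CTR-KO cells of ARP-1, and 122 in MIF-KO and 80.8 in CTR-KO cells of MM.1S.

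**Figure D1:**
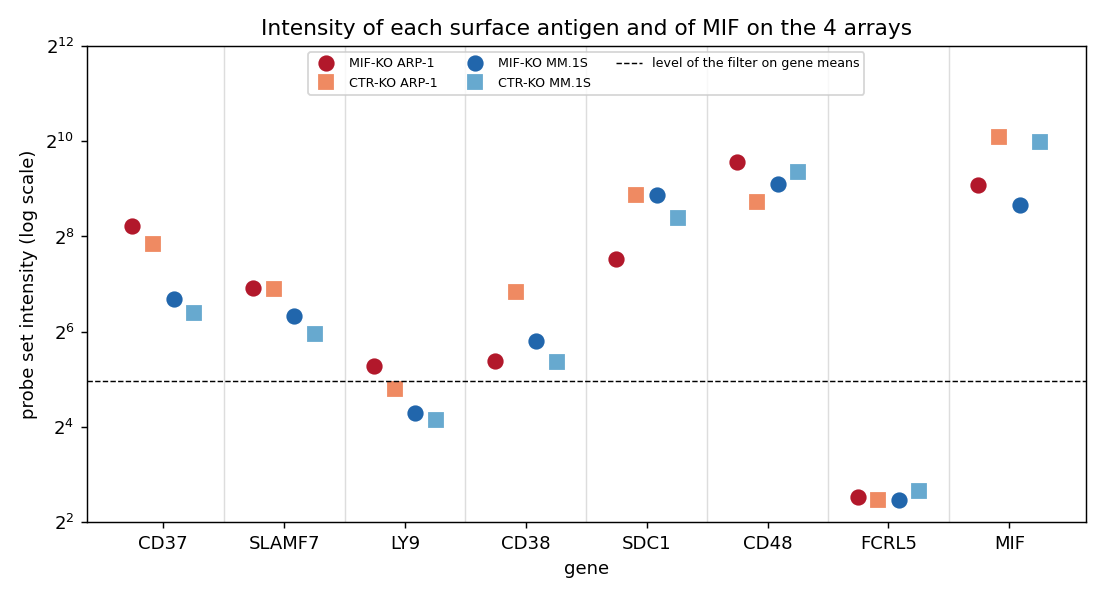
Probe set intensity (log scale) of 7 surface antigens and MIF on the 4 arrays; each point is 1 array, circles are MIF-KO and squares CTR-KO, red is ARP-1 and blue MM.1S, and the dashed line is the filter on gene means. CD37, SLAMF7 and LY9 lie lower on both MM.1S arrays than on both ARP-1 arrays, and FCRL5 stays between 5.50 and 6.27 on all 4.

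CD37, the tetraspanin, separated the lines most. Its intensity (probe set 16864059) was 102.9 on MIF-KO MM.1S and 83.9 on CTR-KO MM.1S, against 299.6 and 229 on MIF-KO and CTR-KO ARP-1. Both MM.1S values lay below both ARP-1 values. MM.1S had 0.343 times the ARP-1 signal under MIF-KO and 0.366 times under CTR-KO. The mean log2 difference, MM.1S minus ARP-1, was -1.50 (SE 0.29, 95% interval -2.24 to -0.75, n = 2 arrays per line), the fifth largest in size and the second most negative of 7442 genes. CD37 ranked 3 by p, yet its limma adjusted p = 0.99986 missed the threshold. Line accounted for 94.97% of the sum of squares of CD37 over the arrays, against a median of 19.6% over tested genes.

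SLAMF7, an activating receptor that binds itself on neighbouring cells, showed the same order of lines. Its intensity (probe set 16672654) was 80.3 on MIF-KO MM.1S and 62.1 on CTR-KO MM.1S, against 122 and 120 on MIF-KO and CTR-KO ARP-1. The ARP-1 arrays were almost equal to each other and above both MM.1S arrays. The CTR-KO MM.1S value was just under 63.0, the highest among the T and NK cell markers. The mean log2 difference was -0.77 (SE 0.28, 95% interval -1.48 to -0.06, n = 2 arrays per line; limma adjusted p = 0.99986). Line accounted for 89.6% of its sum of squares.

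LY9, a receptor that also binds itself, had the faintest signal of the antigens that separated the lines. Its intensity (probe set 16672669) was 19.8 on MIF-KO MM.1S and 17.8 on CTR-KO MM.1S, against 39.1 and 27.9 on MIF-KO and CTR-KO ARP-1. The groups did not overlap, an order whose share over all genes was not counted. The log2 difference was -0.98 under MIF-KO and -0.65 under CTR-KO. Its mean of 4.64 on the log2 scale lay just under the filter of 4.97, so it had no test, and CD38 at 5.85 was the antigen nearest above it. Every LY9 value lay under 63.0, the highest among the T and NK cell markers, so LY9 is low signal here on all arrays.

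At least 1.5-fold lower signal in MM.1S under both conditions was found for 2 of the 5 tested antigens, CD37 and SLAMF7, where the share over all tested genes was 0.322% (24 genes). The untested LY9 met the same bound. SLAMF7 passed it narrowly under MIF-KO, at 0.661 times the ARP-1 signal, and was at 0.519 times under CTR-KO. At 2-fold, CD37 would pass under both conditions and SLAMF7 under neither. An unadjusted p below 0.05 with lower signal in MM.1S was also given to CD37 and SLAMF7 alone of the 5, against 0.497% of all genes. Limma called 0 of 7442 genes between the lines (0%) at an adjusted p below 0.05, with 87 genes below 0.05 unadjusted. The test draws its error from the disagreement of the 2 lines about the hairpin, with 1 residual degree of freedom.

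Under MIF-KO, 1 tested antigen was at least 1.5-fold higher in MM.1S (SDC1; 8.22% of all genes) and 2 were lower (CD37 and SLAMF7; 4.37% of all genes). Under CTR-KO, CD48 was higher (11.2% of all genes), and CD37, SLAMF7 and CD38 were lower (11.1% of all genes). The median line difference of the 5 antigens was -0.46 under MIF-KO and -0.95 under CTR-KO, and over all tested genes 0.05 and -0.02.

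Between the nearest arrays CD37 and SLAMF7 were lower in MM.1S, a sign already fixed by the order of their values given above. CTR-KO MM.1S minus MIF-KO ARP-1 was -1.84 for CD37, the fifth largest in size of 7442 genes in that pair, and -0.97 for SLAMF7. SDC1 differed by 0.88 there. CD38 (-0.03) and CD48 (-0.20) were close to equal on these arrays.

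**Figure D2:**
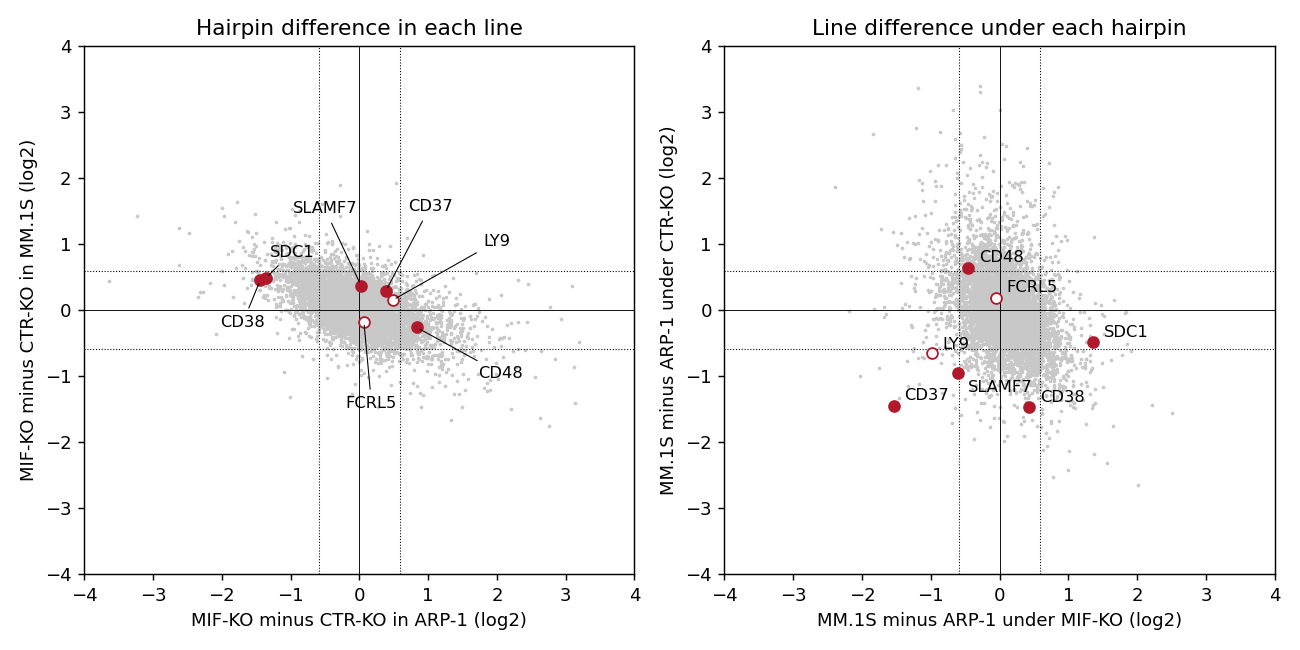
Log2 differences of the tested genes (grey points) and the 7 antigens (red, open where below the filter); left, MIF-KO minus CTR-KO in ARP-1 (x) and in MM.1S (y); right, MM.1S minus ARP-1 under MIF-KO (x) and under CTR-KO (y), with dotted lines at 1.5-fold. CD37 lies at -1.54 and -1.45 in the right panel. CD38 and SDC1 lie together in the left panel, at -1.44 and -1.36 on x, with other genes further left. The panels are built from the same 4 arrays.

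CD48, SLAMF7 and LY9 are neighbours on chromosome 1, in that order in RefSeq, inside a row of SLAM family genes. Their line differences did not run together along it. CD48, the anchored ligand of the NK cell receptor CD244, differed by -0.46 under MIF-KO and 0.64 under CTR-KO, next to the negative values of SLAMF7 and LY9 under both. The preceding genes SLAMF6, CD84 and SLAMF1 had intensities between 5.84 and 8.19 on all 4 arrays and were not tested, and CD244 was unnamed. NCSTN, further along the same side, differed by -0.51 under MIF-KO and 0.56 under CTR-KO, and the transcription factor gene USF1 on the other side by -0.10 and -0.02.

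**Figure D3:**
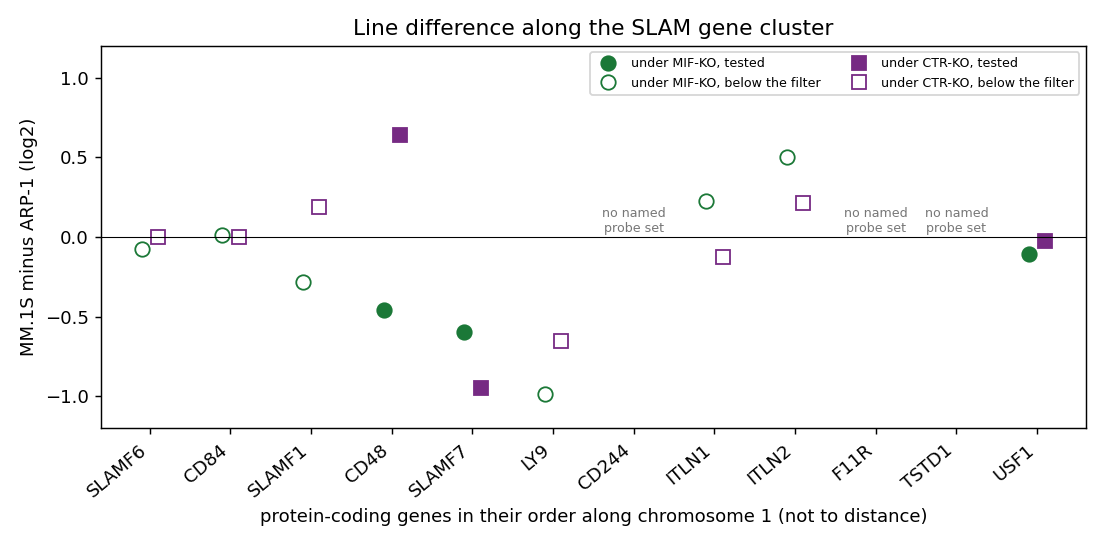
Line difference (MM.1S minus ARP-1, log2) of the genes of the SLAM cluster and their neighbours in their order along chromosome 1, under MIF-KO (circles) and CTR-KO (squares), filled where tested. SLAMF7 and LY9 are negative under both hairpins, and CD48 has opposite signs.

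CD38 was highest on CTR-KO ARP-1. Its intensity (probe set 16965268) was 41.8 on MIF-KO and 113 on CTR-KO ARP-1, and 56.2 on MIF-KO and 41.0 on CTR-KO MM.1S. CTR-KO ARP-1 lay above the other arrays, which were close together. Those other values lay under 63.0, the highest among the T and NK cell markers, so they are low signal here. The summed signal of the 7 myeloid markers was also highest on CTR-KO ARP-1. It was 155 on MIF-KO and 318 on CTR-KO ARP-1, and 226 on MIF-KO and 183 on CTR-KO MM.1S. This came from CD68, and no other of these markers was highest on that array. A part of myeloid signal in the CD38 values was not tested. MIF-KO minus CTR-KO was -1.44 in ARP-1 (0.368 times CTR-KO) and 0.46 in MM.1S (1.37 times CTR-KO). Over both lines the mean was -0.49 (SE 0.48, 95% interval -1.74 to 0.75, n = 2 lines; limma adjusted p = 0.99995).

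SDC1 had nearly the same differences as CD38 from another arrangement of levels. Its intensity (probe set 16894911) was 184 on MIF-KO and 471 on CTR-KO ARP-1, and 471 on MIF-KO and 337 on CTR-KO MM.1S. Here MIF-KO ARP-1 was the low array, and CTR-KO ARP-1 and MIF-KO MM.1S were level. MIF-KO minus CTR-KO was -1.36 in ARP-1 (0.390 times CTR-KO) and 0.48 in MM.1S (1.40 times CTR-KO). The mean was -0.44 (SE 0.51, 95% interval -1.75 to 0.87, n = 2 lines; limma adjusted p = 0.99995). Between lines, SDC1 was higher in MM.1S by 1.36 under MIF-KO and differed by -0.48 under CTR-KO, while CD38 differed by 0.43 and -1.47.

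CD48 ran opposite to CD38 and SDC1. Its intensity (probe set 16695437) was 754 on MIF-KO and 423 on CTR-KO ARP-1, and 549 on MIF-KO and 659 on CTR-KO MM.1S. The ARP-1 values enclosed both MM.1S values. MIF-KO minus CTR-KO was 0.84 in ARP-1 (1.78 times CTR-KO) and -0.26 in MM.1S (0.833 times CTR-KO), with a mean of 0.29 (SE 0.38, 95% interval -0.69 to 1.26, n = 2 lines; limma adjusted p = 0.99995).

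The antigens that followed the line had hairpin differences of 1 sign. MIF-KO minus CTR-KO was 0.39 in ARP-1 cells and 0.29 in MM.1S cells for CD37 (mean 0.34, SE 0.29), 0.02 and 0.37 for SLAMF7 (mean 0.20, SE 0.28), and 0.49 and 0.15 for LY9. Their MIF-KO value was the higher one in each line, by less than 1.5-fold in every case. SLAMF7 was nearly equal in ARP-1, at 122 on MIF-KO and 120 on CTR-KO, and LY9 lay below the filter. The share of all genes higher in MIF-KO in both lines was not counted, so the shared sign is a description only. FCRL5 (probe set 16694886) had intensities of 5.76 on MIF-KO and 5.50 on CTR-KO ARP-1, and of 5.55 on MIF-KO and 6.27 on CTR-KO MM.1S. These lay among the lowest 6.73% of gene means, so no difference is read from them.

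Within ARP-1, 1 of 5 tested antigens was higher in MIF-KO by 1.5-fold or more (CD48; 10.9% of all genes) and 2 were lower (CD38 and SDC1; 11.9% of all genes). Within MM.1S none was past 1.5-fold in either direction, where 5.12% of all genes were higher and 2.89% lower. The median of the 5 antigens was 0.02 in ARP-1 cells and 0.37 in MM.1S cells, and over all tested genes -0.03 and 0.04. Each difference inside a line sets 1 array against 1 other, so no error can be given for it. Limma called 0 of 7442 genes (0%) for MIF-KO against CTR-KO at an adjusted p below 0.05, and 29 genes had an unadjusted p below 0.05.

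Opposite signs in the lines were common. They were seen in 67.6% of tested genes and in 3 of the 5 tested antigens. At 1.5-fold or more in each line, 4.88% of genes were opposite and 0 of 5 antigens. Opposition between lines took 63.6% of the sum of squares of CD38, 68.8% of SDC1 and 77.0% of CD48, against a median of 46.9% over tested genes, and 0.0922% of CD37 and 4.54% of SLAMF7. CD38, SDC1 and CD48 were grouped by their opposite signs, which by construction put the share of opposition above that of condition. Their shares are therefore no separate evidence of opposition.

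The reading of CD38 and SDC1 depends on which ARP-1 array is which. With the ARP-1 conditions exchanged, as the descriptions have them, limma called 401 genes (5.39%), CD38 and SDC1 among them. CD38 then differed by 0.95 (SE 0.24, limma adjusted p = 0.049) and SDC1 by 0.92 (SE 0.22, limma adjusted p = 0.042), higher in MIF-KO in both lines. The exchange only turns the sign of each ARP-1 difference. These means thus restate the opposite differences of CD38 and SDC1 given above and are no new result. CD48 differed by -0.55 (limma adjusted p = 0.11). MIF itself differed by -1.17 under the titles (SE 0.29) and by -0.15 after the exchange (SE 0.40). After the exchange MIF would be 1092 in MIF-KO and 541 in CTR-KO ARP-1, against 405 in MIF-KO and 1012 in CTR-KO MM.1S. Under the titles it was lower in MIF-KO in both lines. Which labelling is right was not tested. The line differences of CD37 and SLAMF7 do not change with the exchange, at -1.50 (limma adjusted p = 0.088) and -0.77 (limma adjusted p = 0.17).

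The genes most alike to each antigen over the 4 arrays were found by the root-mean-square distance of centred log2 values. Nearest to CD38 were the retinol dehydrogenase gene RDH10 (distance 0.079) and the AP-1 gene FOSL1 (0.085). Nearest to SDC1 were MTFR1 (0.040) and CSPP1 (0.070), and nearest to CD48 IGFBP7 (0.012) and COG5 (0.032). SLAMF7 had ST7 (0.072) and TNFRSF14-AS1 (0.082). CD37 had no close companion, with ZNF134 at 0.225 and ZNF8 at 0.251. With 4 arrays such likeness is a description only.

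Genes that work with the antigens were followed in lists, and limma called 0 tested members of any list for the hairpin or the line. Among genes of NAD supply and NAD ectoenzymes, MIF-KO ARP-1 had 1.5-fold more signal or above for 4 of the 8 tested, and 1.5-fold less only for CD38, where 10.9% of all tested genes were higher and 11.9% lower. QPRT, which makes NAD precursors from tryptophan, had an intensity of 187 on MIF-KO and 62.6 on CTR-KO ARP-1, and of 121 on MIF-KO and 249 on CTR-KO MM.1S. Its differences, 1.58 and -1.04, ran opposite to those of CD38. SARM1, an NAD-consuming enzyme of axons, differed by 0.85 in ARP-1 cells and -0.32 in MM.1S cells, the NAD synthetase NADSYN1 by 0.80 and -0.06, and NMNAT1, the nuclear NAD-making enzyme, by 0.60 and -0.12. The list's median was 0.59 in ARP-1 cells and -0.03 in MM.1S cells.

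Of the syndecans and heparan sulfate enzymes, 15 of 26 were tested. By 1.5-fold or more, 2 were higher and 3 lower in MIF-KO ARP-1, and 1 was higher and none lower in MIF-KO MM.1S. The 3 lower ones were SDC1 itself, NDST1 and HPSE. Over all tested genes the shares were 10.9% higher and 11.9% lower in ARP-1, and 5.12% higher and 2.89% lower in MM.1S. Heparanase HPSE, which cuts heparan sulfate chains, had intensities of 162 on MIF-KO and 268 on CTR-KO ARP-1, and of 228 on MIF-KO and 116 on CTR-KO MM.1S, so its signs (-0.73 and 0.98) were those of SDC1. The sulfotransferase NDST1 differed by -0.93 and 0.27. The chain polymerase EXT1 differed by 0.88 and -0.27, and XYLT1, which starts the chains, by 0.69 and 0.18. Medians of the list were -0.11 in ARP-1 cells and 0.16 in MM.1S cells.

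Of 16 listed genes of the SLAM family and its adaptors, 12 were named and 3 tested. Beside CD48 and SLAMF7 this was CD58, the ligand of CD2, at -0.26 in ARP-1 cells and 0.35 in MM.1S cells. SH2D1B, the adaptor EAT-2 through which SLAMF7 signals in NK cells, was below the filter and is named after its values were seen. Its intensity was 12.6 on MIF-KO and 79.6 on CTR-KO ARP-1, and 19.2 on MIF-KO and 14.7 on CTR-KO MM.1S, so CTR-KO ARP-1 alone was high, as for CD38.

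Among tetraspanins, 3 of 11 tested members were lower in MM.1S by 1.5-fold or more under MIF-KO and 1 under CTR-KO, which was CD37, and 1 was higher under CTR-KO. Over all tested genes 4.37% were lower under MIF-KO, and 11.1% lower and 11.2% higher under CTR-KO. TSPAN33, a tetraspanin that binds the protease ADAM10, had intensities of 252 on MIF-KO and 607 on CTR-KO MM.1S, and of 630 on MIF-KO and 231 on CTR-KO ARP-1, with line differences of -1.32 and 1.39. TSPAN31 differed between lines by -0.67 under MIF-KO and 0.43 under CTR-KO, TSPAN13 by 0.01 and 0.42, and CD53, a leukocyte tetraspanin, by -0.47 and 0.21.

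TNFRSF17 (BCMA) and TNFRSF13B (TACI) were not analysed here, but part of their pathway was measured. Both receive the ligands BAFF and APRIL and signal through TRAF adaptors, and gamma-secretase cuts BCMA from the membrane. Of 12 genes of the BAFF and APRIL system 4 were tested, and none differed by 1.5-fold in any of the comparisons. TRAF5 differed by 0.43 in ARP-1 cells and 0.36 in MM.1S cells, the kinase MAP3K14 by -0.21 and -0.03, TRAF3, which restrains that kinase, by 0.08 and -0.13, and CAMLG, a binding partner of TACI, by -0.04 and -0.03. All 5 named gamma-secretase subunits were tested, and 2 had 1.5-fold or more signal in MIF-KO ARP-1 over CTR-KO ARP-1, against 10.9% of all tested genes. APH1B had intensities of 103 on MIF-KO and 39.2 on CTR-KO ARP-1, and of 84.8 on MIF-KO and 99.9 on CTR-KO MM.1S. NCSTN, the substrate-binding subunit, differed by 0.98 and -0.09, PSENEN by 0.35 and -0.28 and APH1A by 0.29 and -0.09. The FCRL family had 8 of 8 genes named, none above 35.5 in intensity and none tested.

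Among 11 tested surface molecules of the B lineage outside the 10 antigens, the 1.5-fold bound was passed upward by 3 and downward by 3 in MIF-KO ARP-1, and by 2 and 1 in MIF-KO MM.1S. Over all tested genes 10.9% passed it upward and 11.9% downward in ARP-1, and 5.12% upward and 2.89% downward in MM.1S. The adhesion molecule NCAM1 differed by 1.95 in ARP-1 cells and -0.56 in MM.1S cells and the cytokine receptor IL21R by 0.88 and -1.25. The vitamin B12 receptor CD320 differed by -1.33 and 0.15, close to CD38 in ARP-1. The interleukin-6 receptor IL6R differed by -0.29 and 1.90, with an intensity of 250 on CTR-KO MM.1S and between 607 and 932 on the other arrays.

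**Figure D4:**
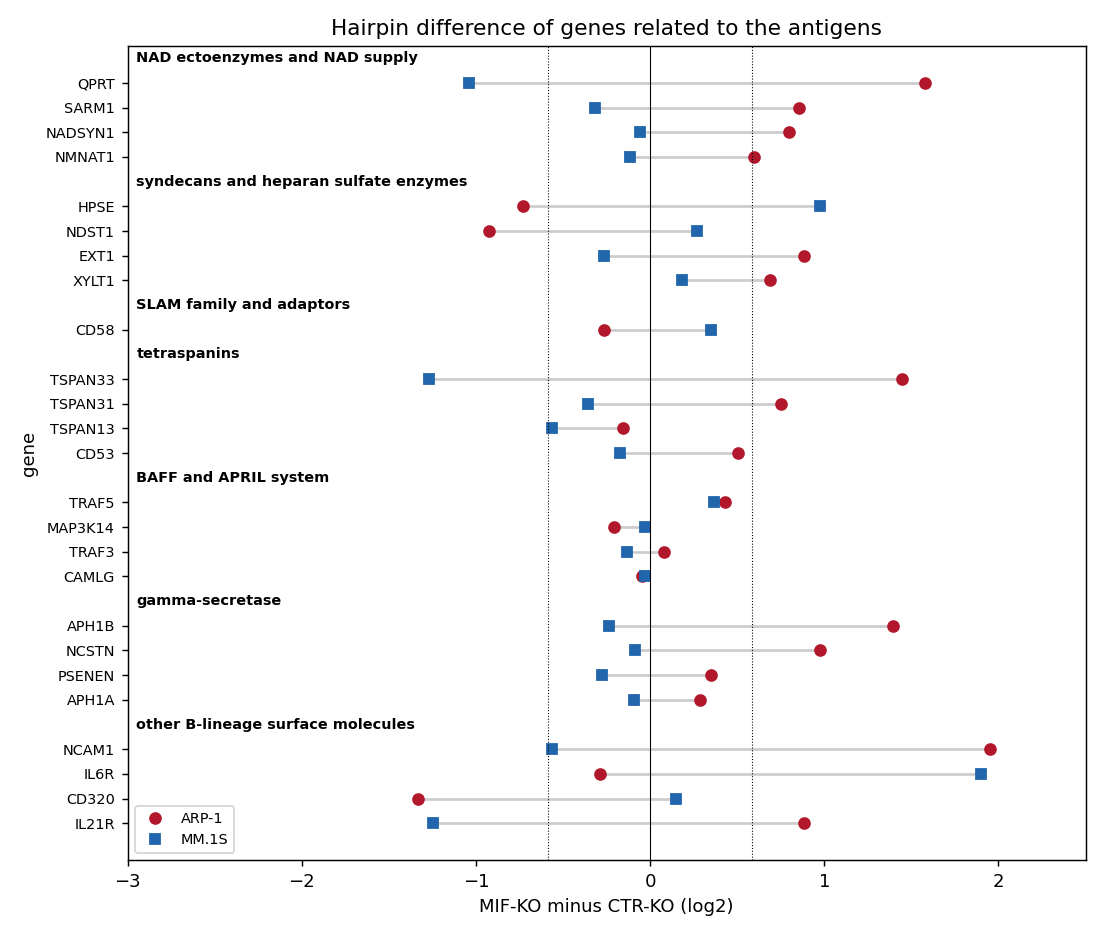
MIF-KO minus CTR-KO (log2) in ARP-1 (red circles) and MM.1S (blue squares) of up to 4 tested genes per list that are not among the 10 antigens, with dotted lines at 1.5-fold. QPRT, TSPAN33 and IL21R are higher in MIF-KO ARP-1 and lower in MIF-KO MM.1S, and TRAF5 is on the same side in both lines.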

How the data were processed

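RNA of 4 samples was hybridised to whole-transcript arrays. The deposited values are linear probe set intensities (2.74 to 15935) made by the authors. Per the submitters' processing notes the tools were RMA and limma, whose versions and order are not stated. For genome build, slides and scan dates the sources used here give nothing. The design expected log2 values, so log2 was taken, with no pseudocount. A platform annotation named 16098 of 53617 probe sets, all matched to RefSeq by Entrez ID. Of several probe sets of a gene the brightest on average was kept. Testing was limited to genes whose mean reached the median over genes, 4.97 log2.

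Limma 3.58.1 (R 4.3.3) fitted cell line and condition, then eBayes with trend and Benjamini-Hochberg adjustment over 7442 genes, threshold 0.05. Cell line is the pairing, from the labels. The prior added 3.99 degrees of freedom to the 1 residual one. P-values reflect only the spread between these samples, which may be technical, and the number of arrays limits precision.

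The fit was run on 20 simulated data sets of 7442 genes for MM.1S against ARP-1, with 200 genes changed. It recovered 1.3% of genes changed 2-fold, 45.5% at 4-fold, 90% at 8-fold and 96.2% at 16-fold, with 221 false among 2551 calls. These shares hold for the simulated sets only. On the arrays the lowest limma adjusted p between lines was 0.99986, so they do not tell what size of line difference would be called there.

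The antigens, gene lists and motifs were chosen with earlier results of these data known. Named were the antigens, MIF, up to 4 tested genes per list by largest difference within a line, and the 2 nearest genes per tested antigen.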

Additional observations from a re-analysis of the deposited data

Results flagged for a closer look

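For CD38, SDC1 and CD48, MIF-KO and CTR-KO cells differed in opposite directions in the 2 lines, as they did for 67.6% of tested genes. The difference in ARP-1 minus that in MM.1S was -1.90 for CD38, -1.84 for SDC1 and 1.10 for CD48 on the log2 scale. With 1 array per line and condition, this difference between lines was not tested.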

How the results depend on the processing

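With 1 array per line and condition, no result has a replicate within a line. The count of genes called for MIF-KO against CTR-KO was 0 under every alternative run except the exchange of the ARP-1 conditions, where it was 401, and the count between lines was 0 under all of them. Without the cell line term (no replicate block) 0 genes were called for the hairpin, with 41 below an unadjusted p of 0.05, and without the condition term 0 between lines, with 208. The exchange turned the mean hairpin difference of CD38 to 0.95, of SDC1 to 0.92, of CD37 to -0.047 and of CD48 to -0.55. Without the ARP-1 pair the hairpin difference was 0.46 for CD38, 0.48 for SDC1 and -0.26 for CD48, and without the MM.1S pair -1.44, -1.36 and 0.84. Between lines, CD38 was 0.43 without the CTR-KO arrays and -1.47 without the MIF-KO arrays, SDC1 1.36 and -0.48, and CD48 -0.46 and 0.64. CD37 (-1.54 and -1.45) and SLAMF7 (-0.60 and -0.95) kept their sign. At 2-fold in place of 1.5-fold, 2 antigens in place of 4 differed between lines under CTR-KO, by construction of the stricter bound. Under MIF-KO the count was 2 in place of 3. Without the filter, with array scaling and with averaging of probe sets, the 5 tested antigens kept the direction of their mean differences and limma called none. So did SDC1, CD37 and CD48 under the stricter filter, which left out CD38 and SLAMF7, and LY9 and FCRL5 had no separate values under these settings. Without the filter, antigens at least 1.5-fold apart between lines numbered 4 in place of 3 under MIF-KO and 5 in place of 4 under CTR-KO. Scaling moved the median of all genes most in MM.1S, by -0.025 between the conditions.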
